A study of Mus musculus with 18 samples.

Results

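The comparison described here asks whether intravenous immunoglobulin (IVIg) moved gene expression of spleen monocytes differently in mice without the inhibitory Fc receptor FcgRIIb than in wild-type (WT) mice. It is the interaction of genotype and treatment, computed for each gene as the IVIg minus PBS difference in FcgRIIb knockout (KO) mice minus the same difference in WT mice, on the log2 scale. A positive value means that IVIg libraries stood higher over PBS libraries in the FcgRIIb KO than in WT. The members are 12 of the 18 libraries of the series, chosen by their genotype and treatment labels. They form 4 groups of 3 independent mice, all with monocytes taken from the spleen by cell sorting on day 3: FcgRIIb knockout mice given IVIg, FcgRIIb knockout mice given phosphate-buffered saline (PBS), C57BL/6 WT mice given IVIg, and C57BL/6 WT mice given PBS. The remaining libraries, from Dectin-1 knockout mice, entered the model to share its estimate of the spread between replicates. The dose of IVIg, the age of the mice and the part of Fcgr2b that the knockout allele lacks are not given in the sources used here.

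IVIg is immunoglobulin G pooled from many blood donors and is given at high dose to dampen antibody-driven inflammation. Monocytes bind its Fc part through activating receptors (FcgRI, FcgRIII and FcgRIV, which signal through the common gamma chain and Syk kinase) and through FcgRIIb, whose inhibitory motif recruits the phosphatase SHIP1 and restrains the activating receptors. In mouse models of immune thrombocytopenia and arthritis, FcgRIIb has been reported as needed for the protective action of IVIg. Mouse spleen holds classical monocytes, high in Ly6C, and non-classical or patrolling monocytes, which are low in Ly6C and carry FcgRIV.

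One of the FcgRIIb KO PBS libraries, replicate 2, held 719494 counts, while the other 11 libraries held 22895716 to 48958909. In this shallow library 3 counts are worth 4.17 CPM (library-scaled counts), while they are worth 0.0613 to 0.131 CPM elsewhere, which leaves rare transcripts out of reach. The main results are therefore given with and without it. Sums over the list of monocyte identity markers lay between 27044 and 43937 CPM in the FcgRIIb KO IVIg libraries and between 35739 and 47206 CPM in the FcgRIIb KO PBS libraries, against 22878 to 37492 CPM in WT IVIg and 27858 to 37906 CPM in WT PBS, and none of its genes was at 0 in any group. The titles of the libraries carry codes whose meaning is not given. FcgRIIb KO PBS replicates 1 and 2 share a code, as do FcgRIIb KO PBS replicate 3 and WT IVIg replicate 3, and that the mice are independent is known from the design text alone. WT IVIg replicate 1 and WT PBS replicate 3, which differ in treatment, were the most alike of all pairs (Spearman 0.988 across genes), and with a chi-square of 37.3 per degree of freedom they are not copies of 1 library.

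Fcgr2b (chromosome 1, 170786186 to 170804116, GRCm39), the targeted gene, was reduced and not absent in libraries labelled FcgRIIb KO. In FcgRIIb KO monocytes Fcgr2b was at 234, 129.8 and 156 CPM with IVIg and at 137, 249.7 and 187 CPM with PBS, and in WT monocytes at 229, 317 and 226 CPM with IVIg and at 208, 302 and 299 CPM with PBS. The 6 KO libraries averaged 182 ± 50.4 CPM, which is 69.2% of the 263 ± 47.6 CPM of the 6 WT libraries (SD, n = 6 each). On mean log2 CPM, without regard to treatment, the exact two-sided permutation p was 0.0238 over 924 assignments. Without the shallow library the KO mean was 169 ± 42.4 CPM (SD, n = 5) and 64.0% of WT (exact two-sided permutation p = 0.0173, also on mean log2 CPM). The KO and WT ranges overlapped, so the counts of this gene alone do not tell the genotypes apart in every library. Reads from exons outside the deleted part would still be counted, and whether they make up the KO counts was not tested. The interaction for this gene was 0.00 ± 0.35 (edgeR unadjusted p = 0.999, interval -0.73 to 0.73) and 0.15 without the shallow library.

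No gene passed the test of the interaction. Of 17040 genes tested with the quasi-likelihood test of edgeR, 0 were higher and 0 lower in the FcgRIIb KO effect than in the WT effect at a Benjamini-Hochberg adjusted p under 0.05 (0%). At an unadjusted p under 0.05 there were 487 genes (2.86%), fewer than the 852 expected with no effect on any gene. Of the 487, 261 (1.53%) had an interaction above 0 and 226 (1.33%) one below 0. Without the shallow library 18068 genes were tested, 0 passed (0%), and 647 (3.58%) had an unadjusted p under 0.05. DESeq2 called 0 genes higher and 1 gene lower among 16996 (0.00588%), Trpm3, an ion channel gene named here after its values were seen. Trpm3 had 14, 3 and 0 counts in FcgRIIb KO IVIg libraries and 5, 71 and 0 in FcgRIIb KO PBS libraries, against 0, 1 and 0 in WT IVIg and 0, 0 and 0 in WT PBS. The 71 counts lie in the shallow library, and edgeR gave Trpm3 an unadjusted p of 0.746.

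Within each genotype the test was as sparing, with 852 genes again expected at an unadjusted p under 0.05 with no effect. In the FcgRIIb KO, 0 genes rose and 0 fell with IVIg at an adjusted p under 0.05 in edgeR (0%), and 543 (3.19%) had an unadjusted p under 0.05. DESeq2 called 1 gene higher (0.00588%) and 12 lower (0.0706%) there, and limma voom called 0. In WT, 428 (2.51%) had one, 0 rose (0%) and 1 fell (0.00587%), Gm9574, a predicted gene named here because it was the single call (edgeR adjusted p = 0.0189). Gm9574 had 9, 10 and 6 counts in FcgRIIb KO IVIg libraries and 10, 0 and 12 in FcgRIIb KO PBS libraries, against 15, 1 and 0 in WT IVIg and 228, 30 and 273 in WT PBS. The 3 WT PBS libraries were thus above the other 9, and in the KO the IVIg and PBS libraries overlapped.

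The design resolved large differences and not small ones. Among the 10165 genes with a mean of at least 5 CPM over the 12 libraries, the median standard error of the interaction was 0.415 on the log2 scale, and the median 95% interval reached 0.868 to either side of the estimate. The whole interval lay between -1 and 1 for 34.8% of these genes. Without the shallow library the median standard error was 0.376. The absence of calls therefore does not show that the genotypes responded alike.

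Set side by side, the IVIg effects of the FcgRIIb KO and of WT, which share no library, were close to uncorrelated across genes. Over the 10165 genes the Spearman correlation was -0.06, with the same direction in 47.1% of genes. Of 138 genes higher in WT at an unadjusted edgeR p under 0.05 (1.39% of all tested genes were), 97 (70.3%) were higher in the KO by estimate, where 47.3% of all 10165 genes were. Without the shallow library this was 134 of 193 (69.4%), where 44.7% of all were. Of 83 genes lower in WT at an unadjusted p under 0.05 (1.12% of all tested genes were), 45 (54.2%) were lower in the KO by estimate, where 52.7% of all were. With all libraries, both effects passed an unadjusted p under 0.05 in the same direction for 9 genes, all of them higher with IVIg. Without the shallow library 24 genes did, of which 20 were higher and 4 lower with IVIg.

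**Figure D1:**
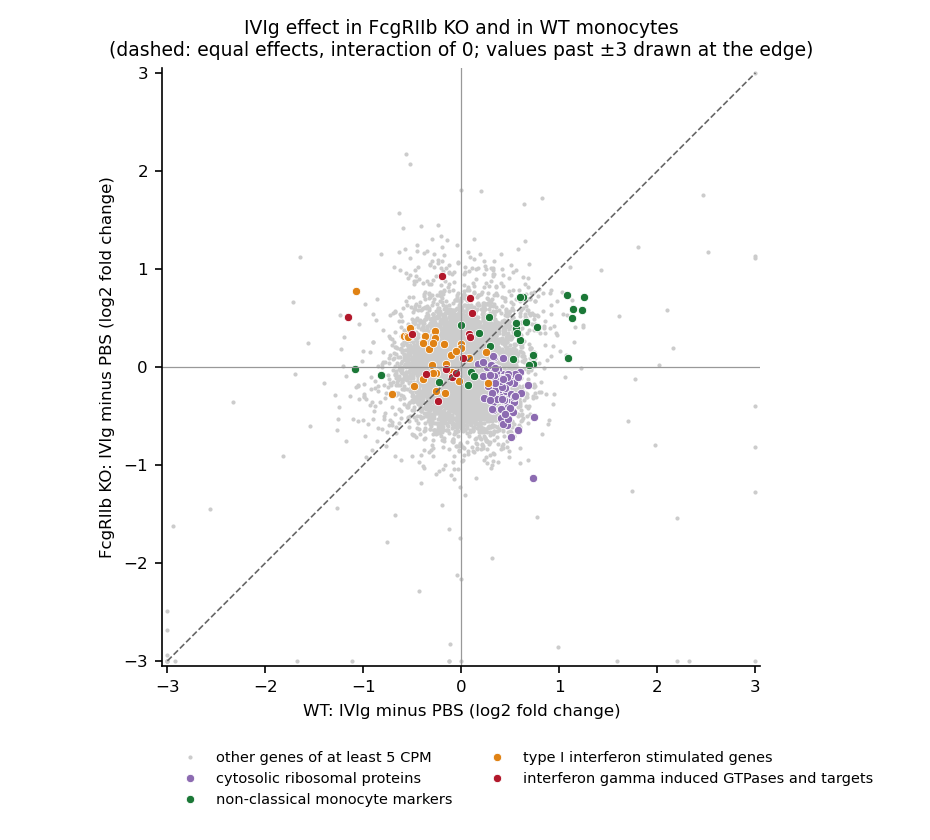
IVIg minus PBS in FcgRIIb KO monocytes (vertical axis, log2 fold change) against the same in WT monocytes (horizontal axis, log2 fold change), with 1 point for each gene of at least 5 CPM and 4 gene lists in colour. Most non-classical markers lie right of 0 and above 0, most type I interferon stimulated genes lie left of 0, and the ribosomal protein genes lie right of 0 and mostly below 0.

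The 9 genes found with all libraries include S1pr5, a receptor of patrolling monocytes, and the inhibitory receptor Lair1. The Lair1 levels were 131, 154 and 115 CPM in FcgRIIb KO IVIg and 64.6, 111 and 80.5 CPM in FcgRIIb KO PBS, against 106, 260.4 and 111 CPM in WT IVIg and 72.2, 115 and 97.7 CPM in WT PBS. Lair1 encodes an inhibitory collagen receptor with the same kind of inhibitory motif as FcgRIIb. Its effect was 0.77 ± 0.31 in the KO and 0.74 ± 0.28 in WT (log2 fold change ± SE), with an interaction of 0.03 ± 0.42. For S1pr5 the libraries gave 128, 144 and 107 CPM (FcgRIIb KO IVIg) and 89.5, 63.5 and 95.2 CPM (FcgRIIb KO PBS), against 142, 190.5 and 178 CPM (WT IVIg) and 103.97, 145 and 122 CPM (WT PBS). S1pr5 encodes a sphingosine 1-phosphate receptor that patrolling monocytes need to leave the bone marrow, and its interaction was 0.06 ± 0.27. Across the 4 groups Cyth3 measured 94.9, 136 and 89.4 CPM in FcgRIIb KO IVIg and 80.2, 47.96 and 60.2 CPM in FcgRIIb KO PBS, against 114, 193 and 95.7 CPM in WT IVIg and 76.02, 88.8 and 73.9 CPM in WT PBS. Cyth3, which encodes a guanine exchange factor for ARF GTPases, was higher with IVIg in every library of both genotypes, by 0.67 ± 0.26 in the KO and 0.76 ± 0.24 in WT. Pltp, the phospholipid transfer protein, was at 177 to 208 CPM in FcgRIIb KO IVIg libraries and at 124 to 147 CPM in FcgRIIb KO PBS libraries, against 169.9 to 281 CPM in WT IVIg and 133 to 201 CPM in WT PBS. The others were Skint3, the predicted transcripts 1700066M21Rik and Gm15931, and a pair of plasma cell genes, Mzb1 and Ighg2c.

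Non-classical monocyte markers stood higher with IVIg in both genotypes by estimate. Of 28 tested members 0 passed the interaction test, and the median effect of IVIg was 0.34 in the KO, with 22 members higher, and 0.58 in WT, with 24 members higher, where 51.1% of all tested genes were higher in each genotype. In WT 13 of the 28 were higher at an unadjusted edgeR p under 0.05, where 1.39% of all tested genes were. All 13 were higher in the KO by estimate, where 70.3% of the 138 such genes of at least 5 CPM were. In the KO itself 1 of the 28 was higher at an unadjusted edgeR p under 0.05. Summed levels of the list overlapped between treatments in each genotype. They were 10909 to 12619 CPM in FcgRIIb KO IVIg and 8473 to 13204.5 CPM in FcgRIIb KO PBS. In WT they were 13442 to 16293.5 CPM with IVIg and 12922.5 to 13797 CPM with PBS. In a bulk sample, more cells of a type and more RNA per cell cannot be told apart. The median interaction of the list was -0.22, and 8 of 28 members were above 0, where 50.7% of all tested genes were, with a median of 0.01 that lay between -0.05 and 0.13 over the 23 other settings. The median of the list stayed at -0.22 without the shallow library and lay between -0.33 and -0.06 over those 23 settings.

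Single members show the spread behind that median. Cd300e stood at 184, 241 and 172 CPM in the FcgRIIb KO IVIg libraries and at 155, 117 and 116 CPM in the FcgRIIb KO PBS libraries, against 237, 339 and 228 CPM in WT IVIg and 75.7, 152 and 137 CPM in WT PBS. Cd300e encodes an activating receptor of non-classical monocytes. Its KO IVIg libraries were all above its KO PBS libraries, as in WT, and its effect was 0.59 ± 0.28 in the KO and 1.14 ± 0.27 in WT, with an interaction of -0.55 ± 0.39 (edgeR unadjusted p = 0.176), or -0.60 without the shallow library. In FcgRIIb KO monocytes Treml4 was at 317, 321 and 241 CPM with IVIg and at 211, 210.2 and 217 CPM with PBS, and in WT monocytes at 322, 501 and 316 CPM with IVIg and at 168, 269 and 282 CPM with PBS. Treml4, a receptor for dying cells, also separated without overlap in the KO, by 0.46, and by 0.66 in WT, with an interaction of -0.21 ± 0.32, or -0.22 without the shallow library. The Eno3 levels were 248, 233 and 109 CPM in FcgRIIb KO IVIg and 135, 22.6 and 178 CPM in FcgRIIb KO PBS, against 178, 297 and 216 CPM in WT IVIg and 89.2, 111 and 93.7 CPM in WT PBS. Eno3 is the muscle form of enolase, and its interaction of -0.65 ± 0.49 became -0.91 without the shallow library, where it stood lowest. For Cd36 the libraries gave 270.2, 438 and 296 CPM (FcgRIIb KO IVIg) and 144, 399 and 154 CPM (FcgRIIb KO PBS), against 159.9, 555 and 208 CPM (WT IVIg) and 112, 189.9 and 85.2 CPM (WT PBS). For Cd36, a scavenger receptor for oxidised lipids, the shallow library was the one high KO PBS value, and the interaction was -0.54 ± 0.62 with it and -0.09 without it.

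Pparg, the lipid-sensing nuclear receptor and a regulator of Cd36, gave the lowest p of the non-classical list. Pparg is also on the list of red pulp macrophage markers, as is Treml4. Across the 4 groups Pparg measured 53.7, 50.1 and 35.3 CPM in FcgRIIb KO IVIg and 37.1, 70.5 and 43.4 CPM in FcgRIIb KO PBS, against 46.1, 68.1 and 60.7 CPM in WT IVIg and 27.4, 32.3 and 22.3 CPM in WT PBS. In WT the IVIg libraries stood above all PBS libraries, by 1.09 ± 0.24, and in the KO the treatments overlapped, with an effect of 0.09 ± 0.27. The interaction was -0.99975 ± 0.36 (interval -1.76 to -0.24, edgeR unadjusted p = 0.0124, not called) and -0.90 without the shallow library. Gngt2, a G protein gamma subunit of non-classical monocytes, had an interaction of -0.70 ± 0.40. Ace, the angiotensin-converting enzyme, which non-classical monocytes carry, was near 0 at 0.09 ± 0.51. The classical markers had a median interaction of -0.11, or -0.17 without the shallow library, and it lay on both sides of 0 over the 23 other settings (-0.34 to 0.14).

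**Figure D2:**
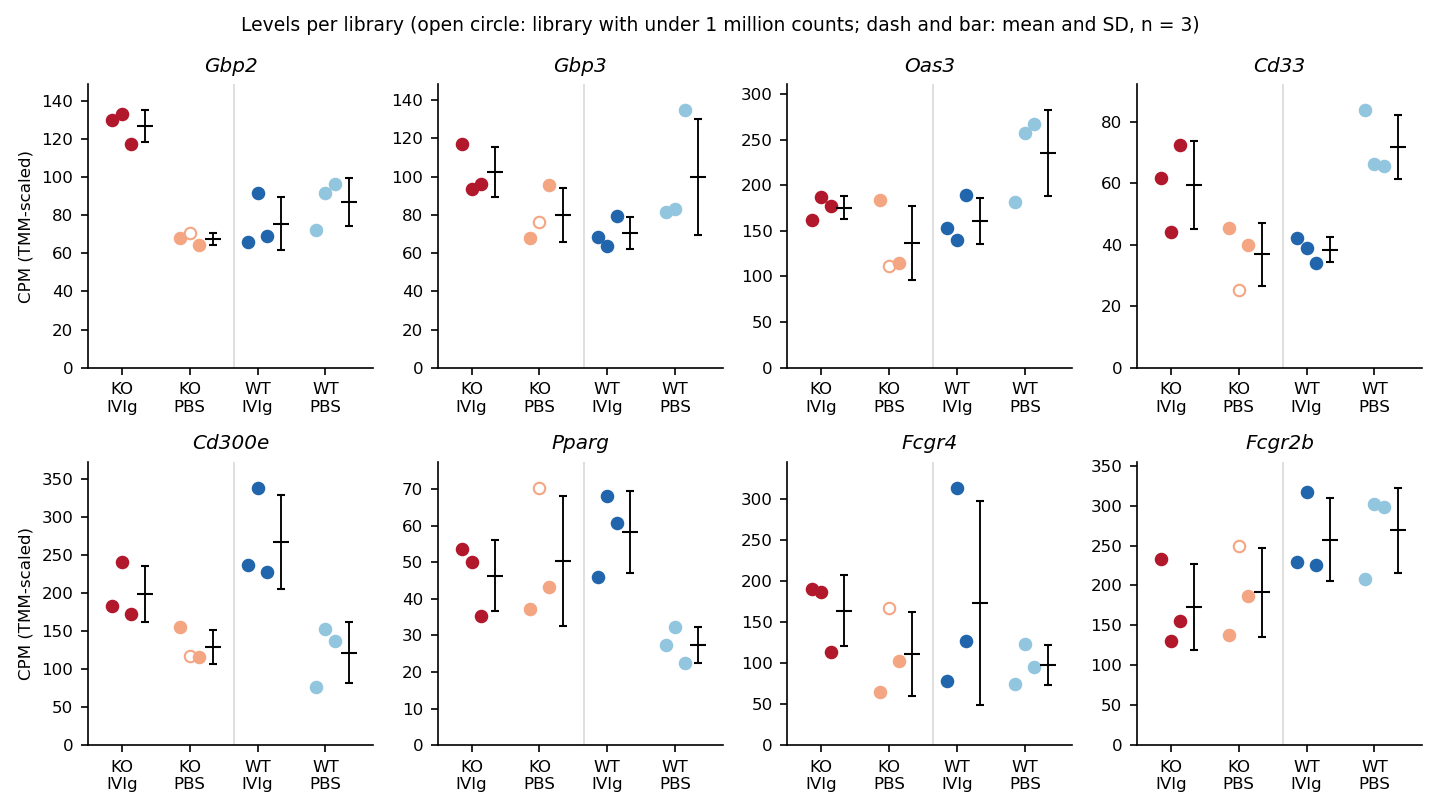
TMM-scaled CPM of 8 genes in each library of the 4 groups, with mean and SD (n = 3) beside the points and the shallow library as an open circle. Gbp2 is high in the 3 FcgRIIb KO IVIg libraries (117 to 133 CPM), Cd33 is lower in WT IVIg than in WT PBS, and Cd300e is higher with IVIg in both genotypes.

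With all libraries, the median IVIg effects of interferon-induced genes lay on opposite sides of 0 in the genotypes. No single gene passed the test. Across 2 lists, with 53 tested genes in all, 46 had an interaction above 0, against 50.7% of all tested genes, and 45 did without the shallow library, against 50.6%. For the 20 tested GTPases and targets induced by interferon gamma, the median effect of IVIg was 0.43 in the KO (14 higher) and -0.13 in WT (14 lower), and the median interaction was 0.44, with 17 above 0. For the 34 tested type I interferon stimulated genes the median effect was 0.11 in the KO (21 higher) and -0.27 in WT (30 lower, where 48.7% of all tested genes were), and the median interaction was 0.25, with 29 above 0. The median interactions were 0.49 and 0.37 without the shallow library, and over the 23 other settings they lay between 0.26, without FcgRIIb KO IVIg replicate 2, and 0.70, and between 0.11, without WT PBS replicate 3, and 0.42. Few members separated by library. Of the 53, 3 stood above PBS in every KO IVIg library, where 5.76% of all tested genes did. In WT, 4 stood below PBS in every IVIg library, where 2.88% did. Summed levels of both lists overlapped between treatments in each genotype. The interferon gamma list summed to 864 to 987 CPM in WT IVIg and 857 to 1172 CPM in WT PBS. Its median log2 CPM deviation was 0.54 in WT PBS replicate 3, against -0.12 and 0.11 in the other WT PBS libraries. In WT IVIg it was -0.18, 0.18 and -0.06.

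**Figure D3:**
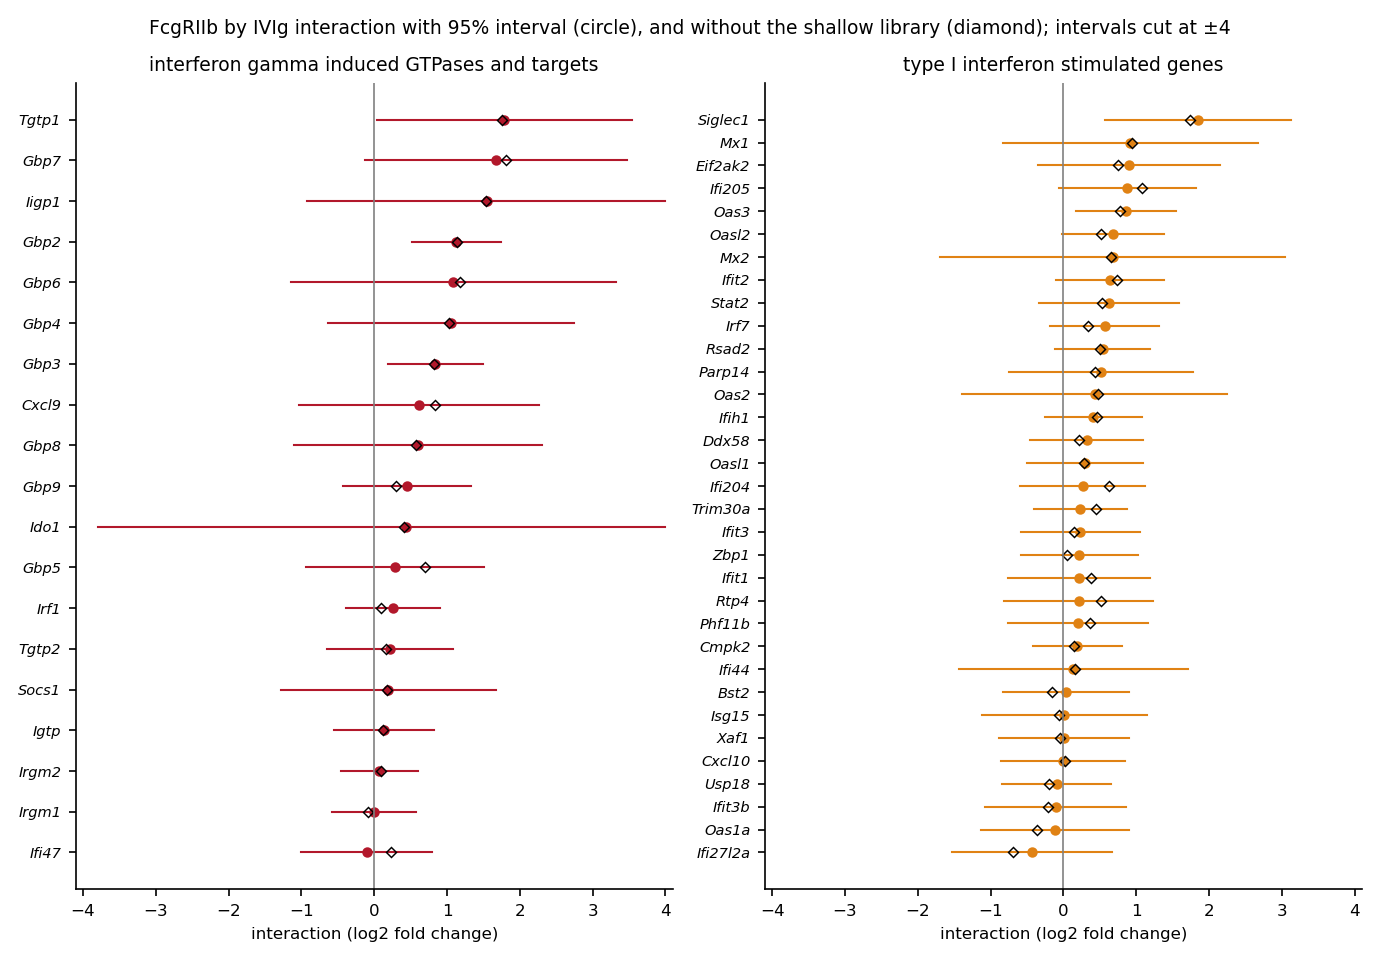
Interaction of each interferon-induced gene (log2 fold change) as a circle with its 95% interval, and without the shallow library as a diamond, for 19 genes of the interferon gamma list on the left and 33 of the 34 type I genes on the right (Cxcl10, in both lists, is drawn on the right, and 1 type I gene is not drawn). Most circles lie right of 0, 5 intervals lie wholly above 0 and 0 lie wholly below 0.

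Gbp2 (chromosome 3, 142326363 to 142343769, GRCm39), a guanylate-binding GTPase that attacks the vacuoles of intracellular pathogens, had the lowest p among genes of at least 5 CPM with a positive interaction. Gbp2 stood at 129.7, 133 and 117 CPM in the FcgRIIb KO IVIg libraries and at 68.04, 70.5 and 64.2 CPM in the FcgRIIb KO PBS libraries, against 65.7, 91.4 and 69.2 CPM in WT IVIg and 72.4, 91.5 and 96.2 CPM in WT PBS. The KO IVIg libraries stood above all 9 others, and the WT groups overlapped. The effect was 0.92 ± 0.22 in the KO and -0.20 ± 0.20 in WT, and the interaction was 1.13 ± 0.29 (interval 0.51 to 1.74, edgeR unadjusted p = 0.00107, adjusted p = 0.99996). It was 1.13 without the shallow library and between 1.04 and 1.29 with any 1 library left out. In Dectin-1 KO monocytes the IVIg effect on Gbp2 was -0.14.

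Other members differed in which group set them apart. In FcgRIIb KO monocytes Gbp3 was at 117, 93.5 and 96.4 CPM with IVIg and at 67.8, 76.2 and 95.7 CPM with PBS, and in WT monocytes at 68.4, 63.6 and 79.5 CPM with IVIg and at 81.4, 82.98 and 135 CPM with PBS. Gbp3, a neighbour of Gbp2 in the same family, separated in WT, where the IVIg libraries were the lower ones, and overlapped in the KO. Its interaction was 0.84 ± 0.31 (edgeR unadjusted p = 0.014) and 0.82 without the shallow library. The Oas3 levels were 162, 187 and 177 CPM in FcgRIIb KO IVIg and 183, 111 and 115 CPM in FcgRIIb KO PBS, against 153, 140.4 and 189 CPM in WT IVIg and 181, 258 and 267 CPM in WT PBS. Oas3, an antiviral oligoadenylate synthetase, had its highest levels in WT PBS replicates 2 and 3, and its interaction was 0.85 ± 0.33 (edgeR unadjusted p = 0.0177) and 0.77 without the shallow library. For Siglec1 the libraries gave 19.999, 52.8 and 47.03 CPM (FcgRIIb KO IVIg) and 37.6, 0 and 12.8 CPM (FcgRIIb KO PBS), against 38.6, 42.7 and 32.2 CPM (WT IVIg) and 75.1, 74.3 and 88.98 CPM (WT PBS). Siglec1, a sialic acid receptor and a marker of interferon exposure in monocytes, had 0 counts in the shallow library, and its WT IVIg libraries were all below WT PBS. Siglec1 is also on the list of red pulp macrophage markers. Its interaction was 1.85 ± 0.61 (edgeR unadjusted p = 0.00687) and 1.73 without the shallow library. Tgtp1, a further GTPase, was at 0 to 2.64 CPM throughout, with an interaction of 1.78 ± 0.83. Other members sat near 0, such as Isg15 at 0.01 ± 0.54 and Cxcl10 at -0.01 ± 0.41, while Irf7 gave 0.56 ± 0.36. Several of these genes belong to families of similar sequence, and values of single members are uncertain where reads are shared between copies.

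The promoters of Gbp2, Gbp3 and Oas3 are shown because they carry the element through which interferon-activated factors are known to act. They are RefSeq sequences of build GRCm38.p6, each from 250 bases before to 50 bases after the start of the gene and written on the strand of the gene. Capitals mark matches to the core of the interferon-stimulated response element, searched as GAAANNGAAA on both strands.
Gbp2: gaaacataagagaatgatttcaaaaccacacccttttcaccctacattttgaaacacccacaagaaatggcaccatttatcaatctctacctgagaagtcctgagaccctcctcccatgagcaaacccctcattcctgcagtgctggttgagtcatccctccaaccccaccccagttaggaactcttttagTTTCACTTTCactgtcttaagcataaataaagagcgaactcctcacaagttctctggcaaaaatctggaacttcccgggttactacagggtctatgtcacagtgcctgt
Gbp3: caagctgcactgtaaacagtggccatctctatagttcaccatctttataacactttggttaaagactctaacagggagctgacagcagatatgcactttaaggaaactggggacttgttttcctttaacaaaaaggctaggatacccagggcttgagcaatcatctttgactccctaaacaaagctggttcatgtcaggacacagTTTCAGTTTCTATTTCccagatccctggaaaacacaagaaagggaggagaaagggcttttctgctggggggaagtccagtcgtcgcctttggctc
Oas3: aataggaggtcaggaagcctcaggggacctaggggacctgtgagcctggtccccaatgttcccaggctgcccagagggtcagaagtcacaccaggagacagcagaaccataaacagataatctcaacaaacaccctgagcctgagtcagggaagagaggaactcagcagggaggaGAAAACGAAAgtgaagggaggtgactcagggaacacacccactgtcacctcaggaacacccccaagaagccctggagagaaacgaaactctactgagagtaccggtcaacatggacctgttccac
The Gbp2 sequence covers chr3:142620413-142620712 on the plus strand, with its match at -59 to -50 from the start. The Gbp3 sequence covers chr3:142559794-142560093 on the plus strand, with 2 overlapping matches at -45 to -36 and -39 to -30. The Oas3 sequence covers chr5:120777610-120777909 on the minus strand, with its match at -75 to -66. The core was found in 11 of the 14 members of the interferon gamma list that have a promoter sequence (78.6%) and in 16 of the 23 type I genes that have one (69.6%), against 3.49% of all 27025 promoters. A second element, the gamma-activated site, was searched as TTCNNNGAA, which reads the same on both strands. It was found in 7 of the 14 (50%) and 4 of the 23 (17.4%), against 8.47% of all promoters. The printed promoters of Gbp2, Gbp3 and Oas3 hold no match to it, and that of Tgtp1, not printed, holds 1 match to each element. The lists were made of genes known to be induced by interferon, so these shares carry no information on IVIg or FcgRIIb. A match describes letters in this window and is no measurement of binding.

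Summed markers of T cells and of NK cells also stood higher in FcgRIIb KO IVIg libraries. The summed T cell markers stood at 87.5, 105 and 63.3 CPM in the FcgRIIb KO IVIg libraries and at 57.0, 53.6 and 42.2 CPM in the FcgRIIb KO PBS libraries, against 39.6, 68.1 and 25.6 CPM in WT IVIg and 39.4, 50.2 and 62.2 CPM in WT PBS. The summed NK cell markers stood at 94.0, 107 and 73.5 CPM in FcgRIIb KO IVIg libraries and at 54.8, 39.5 and 69.9 CPM in FcgRIIb KO PBS libraries, against 42.8, 102 and 43.5 CPM in WT IVIg and 48.0, 51.4 and 36.6 CPM in WT PBS. Both sums were higher in every KO IVIg library than in every KO PBS library, and in WT the treatments overlapped. No T cell marker and, in WT PBS, 1 NK cell marker was at 0 throughout a group. Median interactions were 1.22 for the T cell markers, with 19 of 22 above 0, and 1.67 for the NK cell markers, with 15 of 18 above 0, and 17 of the 22 and 16 of the 18 had 0 counts in the shallow library. Without that library the medians were 1.17 and 1.41. Over the 23 other settings the T cell median lay between 0.77, without the most alike WT pair, and 1.88, without FcgRIIb KO PBS replicate 1, and the NK cell median between 0.27, under the stricter filter, which keeps 9 of its genes, and 1.82, under the legacy fit. Across the 4 groups Klrb1c measured 2.12, 2.40 and 1.503 CPM in FcgRIIb KO IVIg and 0.477, 0 and 0.154 CPM in FcgRIIb KO PBS, against 0.913, 1.39 and 1.09 CPM in WT IVIg and 1.45, 1.76 and 1.20 CPM in WT PBS. Klrb1c encodes the NK receptor NK1.1, and its interaction was 2.99 ± 0.87 (edgeR unadjusted p = 0.00222, not called) and 2.96 without the shallow library, from at most 2.40 CPM. The part of these cells in the interferon values was not tested. Summed B cell markers stood at 578 to 1558 CPM in FcgRIIb KO IVIg and 780.3 to 1469 CPM in FcgRIIb KO PBS, against 360.3 to 617 CPM in WT IVIg and 272 to 337 CPM in WT PBS, and their median interaction of -0.01 became -0.80 without WT PBS replicate 3 and 0.64 without FcgRIIb KO PBS replicate 1. The median interactions of the other cell type lists moved as widely over the 23 settings. They were 0.17 (0.00050 to 1.32) for neutrophils, 0.44 (0.10 to 4.79, the highest without FcgRIIb KO PBS replicate 1) for 8 platelet genes and 1.79 (0.44 to 2.41) for 9 stroma genes. They lay on both sides of 0 for plasma cells (-0.47 to 0.40), erythroid cells (-0.27 to 0.68), dendritic cells (-0.08 to 0.37), red pulp macrophages (-0.01 to 0.43) and monocyte identity (-0.29 to 0.15).

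None of the Fc receptors or their signalling genes passed the interaction test. Of 12 tested receptors and chains 0 were called, 5 were above 0 and the median interaction was -0.08, or -0.12 without the shallow library and -0.24 to 0.07 over all 23 settings. Fcgr4 stood at 190.0, 187 and 114 CPM in the FcgRIIb KO IVIg libraries and at 64.3, 166 and 103 CPM in the FcgRIIb KO PBS libraries, against 78.5, 314 and 127 CPM in WT IVIg and 74.1, 123 and 94.8 CPM in WT PBS. Fcgr4 encodes FcgRIV, the receptor of non-classical monocytes for IgG2 antibodies, and its effect was 0.75 ± 0.41 in the KO and 0.83 ± 0.38 in WT, with an interaction of -0.08 ± 0.56 (interval -1.25 to 1.08), or 0.13 without the shallow library. In FcgRIIb KO monocytes Fcgr1 was at 172, 138 and 139 CPM with IVIg and at 146, 109 and 233 CPM with PBS, and in WT monocytes at 105, 109 and 178 CPM with IVIg and at 146, 175 and 207 CPM with PBS. Fcgr1, the high-affinity receptor, had overlapping groups and an interaction of 0.23 ± 0.36. The interactions were -0.08 ± 0.32 for Fcgr3, -0.43 ± 0.46 for the common chain Fcer1g and -0.47 ± 0.35 for Fcgrt, the neonatal receptor that recycles IgG. The signs of Fcgr1, Fcgr3 and Fcgr4 turned under at least 1 other setting, so no direction is read from them.

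In the cascade below the receptors, the 29 activating genes had a median interaction of 0.13, with 21 above 0 and 1 at an unadjusted edgeR p under 0.05, and the median lay between 0.03 and 0.25 over the 23 other settings. The Vav3 levels were 45.5, 72.4 and 72.5 CPM in FcgRIIb KO IVIg and 44.6, 4.23 and 31.4 CPM in FcgRIIb KO PBS, against 74.6, 78.4 and 51.1 CPM in WT IVIg and 69.1, 69.3 and 77.1 CPM in WT PBS. That gene was Vav3, an exchange factor downstream of Syk, which was lowest in the shallow library. Its interaction was 0.94 ± 0.38 with that library and 0.81 without it. The 27 phosphatases and receptors with inhibitory motifs had a median of 0.03, or -0.06 without the shallow library, and 14 above 0. Cblb, a ubiquitin ligase that restrains Fc receptor signalling, gave 1.25 ± 0.54. Clec7a, which encodes Dectin-1, gave -0.26 ± 0.43.

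Of the genes of at least 5 CPM outside these lists, Cd33 had the lowest p with a positive interaction. For Cd33 the libraries gave 61.8, 44.2 and 72.5 CPM (FcgRIIb KO IVIg) and 45.4, 25.4 and 39.8 CPM (FcgRIIb KO PBS), against 42.3, 38.8 and 34.04 CPM (WT IVIg) and 83.7, 66.2 and 65.6 CPM (WT PBS). Cd33 (chromosome 7, 43173640 to 43193852, GRCm39) encodes a sialic acid receptor. In WT the IVIg libraries were all below the PBS libraries, by -0.90 ± 0.27, and in the KO 2 of the 3 IVIg libraries were above all PBS libraries, with an effect of 0.54 ± 0.29. The interaction was 1.45 ± 0.40 (interval 0.61 to 2.29, edgeR unadjusted p = 0.00186) and 1.38 without the shallow library. Across the 4 groups Spred1 measured 46.1, 64.1 and 76.2 CPM in FcgRIIb KO IVIg and 43.7, 25.4 and 27.5 CPM in FcgRIIb KO PBS, against 45.5, 66.9 and 47.8 CPM in WT IVIg and 58.5, 71.4 and 68.7 CPM in WT PBS. Spred1 encodes an inhibitor of Ras signalling, and each of its KO IVIg libraries stood above each KO PBS library, with an interaction of 1.15 ± 0.35 (edgeR unadjusted p = 0.00359), or 1.11 without the shallow library. Maf, a macrophage transcription factor, was at 23.5, 18.5 and 21.7 CPM in FcgRIIb KO IVIg libraries and at 22.4, 5.64 and 25.3 CPM in FcgRIIb KO PBS libraries, against 28.3, 13.02 and 24.1 CPM in WT IVIg and 50.2, 44.4 and 53.0 CPM in WT PBS. Its interaction of 1.08 ± 0.43 rested on WT, where the effect was -1.18 ± 0.29.

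Genes whose libraries separated in opposite directions were rare. In 25 genes (0.147%) every KO IVIg library was above every KO PBS library and every WT IVIg library below every WT PBS library, and 20 of the 25 had 0 counts in the shallow library. Among the 7 at 5 CPM or more were Lmnb1, Ugcg, Scamp1 and Hace1. Ugcg stood at 31.2, 41.5 and 42.3 CPM in the FcgRIIb KO IVIg libraries and at 30.4, 23.98 and 28.4 CPM in the FcgRIIb KO PBS libraries, against 35.9, 36.3 and 28.5 CPM in WT IVIg and 42.2, 46.5 and 42.9 CPM in WT PBS. Ugcg encodes the glucosylceramide synthase, and its interaction was 0.80 ± 0.27 (edgeR unadjusted p = 0.00868), or 0.77 without the shallow library. The reverse pattern held in 13 genes (0.0763%), of which 9 were at 5 CPM or more and 0 had 0 counts in the shallow library. In FcgRIIb KO monocytes Nectin4 was at 12.5, 18.9 and 14.4 CPM with IVIg and at 19.7, 38.1 and 20.9 CPM with PBS, and in WT monocytes at 17.1, 19.977 and 23.3 CPM with IVIg and at 12.01, 13.7 and 13.7 CPM with PBS. Nectin4, an adhesion molecule, was among them, with an interaction of -1.10 ± 0.36 (edgeR unadjusted p = 0.00605), or -1.02 without the shallow library. The Apbb1 levels were 5.62, 4.45 and 5.10 CPM in FcgRIIb KO IVIg and 11.6, 26.8 and 6.25 CPM in FcgRIIb KO PBS, against 10.2, 7.47 and 8.72 CPM in WT IVIg and 6.06, 6.34 and 4.12 CPM in WT PBS. Apbb1 encodes an adaptor of the amyloid precursor protein, and its interaction was -1.62 ± 0.49 (edgeR unadjusted p = 0.00335), or -1.53 without the shallow library.

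For Clec4b1 the libraries gave 18.3, 13.6 and 12.8 CPM (FcgRIIb KO IVIg) and 17.7, 22.6 and 29.9 CPM (FcgRIIb KO PBS), against 11.4, 15.5 and 17.1 CPM (WT IVIg) and 9.88, 8.69 and 6.38 CPM (WT PBS). Clec4b1, an activating C-type lectin of myeloid cells, was below all KO PBS libraries in 2 of the 3 KO IVIg libraries, and above all WT PBS libraries in all 3 WT IVIg libraries. Its interaction was -1.502 ± 0.43 (edgeR unadjusted p = 0.00243, not called), -1.52 without the shallow library. The C-type lectin list as a whole gave a median interaction of -0.50, with 9 of 26 above 0, -0.13 without the shallow library, -0.14 without WT IVIg replicate 2, and -0.57 to -0.12 over the 23 other settings. Cd209a, a lectin also used as a dendritic cell marker, was lower in the KO effect by estimate, at 278, 179 and 252 CPM in FcgRIIb KO IVIg libraries and 336, 379 and 314 CPM in FcgRIIb KO PBS libraries, against 171, 244 and 217 CPM in WT IVIg and 195, 194 and 181 CPM in WT PBS.

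Cholesterol synthesis genes had a median IVIg effect of -0.40 in the KO, or -0.16 without FcgRIIb KO PBS replicate 3, and of -0.14 in WT, or 0.02 without WT PBS replicate 1. The median interaction was -0.21, with 7 of 23 above 0, or -0.23 without the shallow library and -0.41 to -0.12 over the 23 other settings. Across the 4 groups Fdps measured 53.8, 30.9 and 28.7 CPM in FcgRIIb KO IVIg and 45.6, 67.7 and 91.2 CPM in FcgRIIb KO PBS, against 41.1, 38.2 and 43.2 CPM in WT IVIg and 42.2, 44.7 and 25.4 CPM in WT PBS. Fdps, the farnesyl diphosphate synthase, gave -0.99 ± 0.46 (edgeR unadjusted p = 0.043). Its treatments overlapped in both genotypes. Squalene epoxidase, Sqle, gave -0.66 ± 0.44. Cell cycle genes were higher with IVIg in both genotypes by estimate, by a median of 0.56 in the KO (36 of 42 higher) and 0.40 in WT (34 of 42 higher), with each at 0.16 without replicate 2 of its own IVIg group. They had a median interaction of 0.17 and 22 of the 42 at 0 counts in the shallow library. That median was 0.15 without the shallow library, -0.31 without FcgRIIb KO IVIg replicate 2 and 0.47 without WT IVIg replicate 2, so no direction of the interaction is read from it.

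Each of the remaining pathway lists is given by its median interaction with all libraries and then without the shallow one. The NF-kB feedback genes and cytokines gave 0.21 (21 of 27 above 0) and 0.16, and 0.07 without WT PBS replicate 3. The monocyte lineage transcription factors gave 0.16 and 0.15, glycolysis -0.19 and -0.38, and the immediate early genes, which answer to stress during cell isolation among other cues, 0.14 and 0.01. The medians of 6 lists lay on both sides of 0 over the 23 other settings, and no direction is read from them. These were the complement and scavenger receptors (0.18 and 0.24), the chemokines and their receptors (0.15 and 0.19), the unfolded protein response (0.08 and 0.05), antigen presentation by class II (-0.17 and -0.04) and class I (0.02 and -0.08), and the lysosome (-0.03 and -0.10). None of these lists held a called gene. The Y-linked Kdm5d and Ddx3y, present in all 12 libraries, gave 0.25 ± 0.44 and -0.05 ± 0.29.

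**Figure D4:**
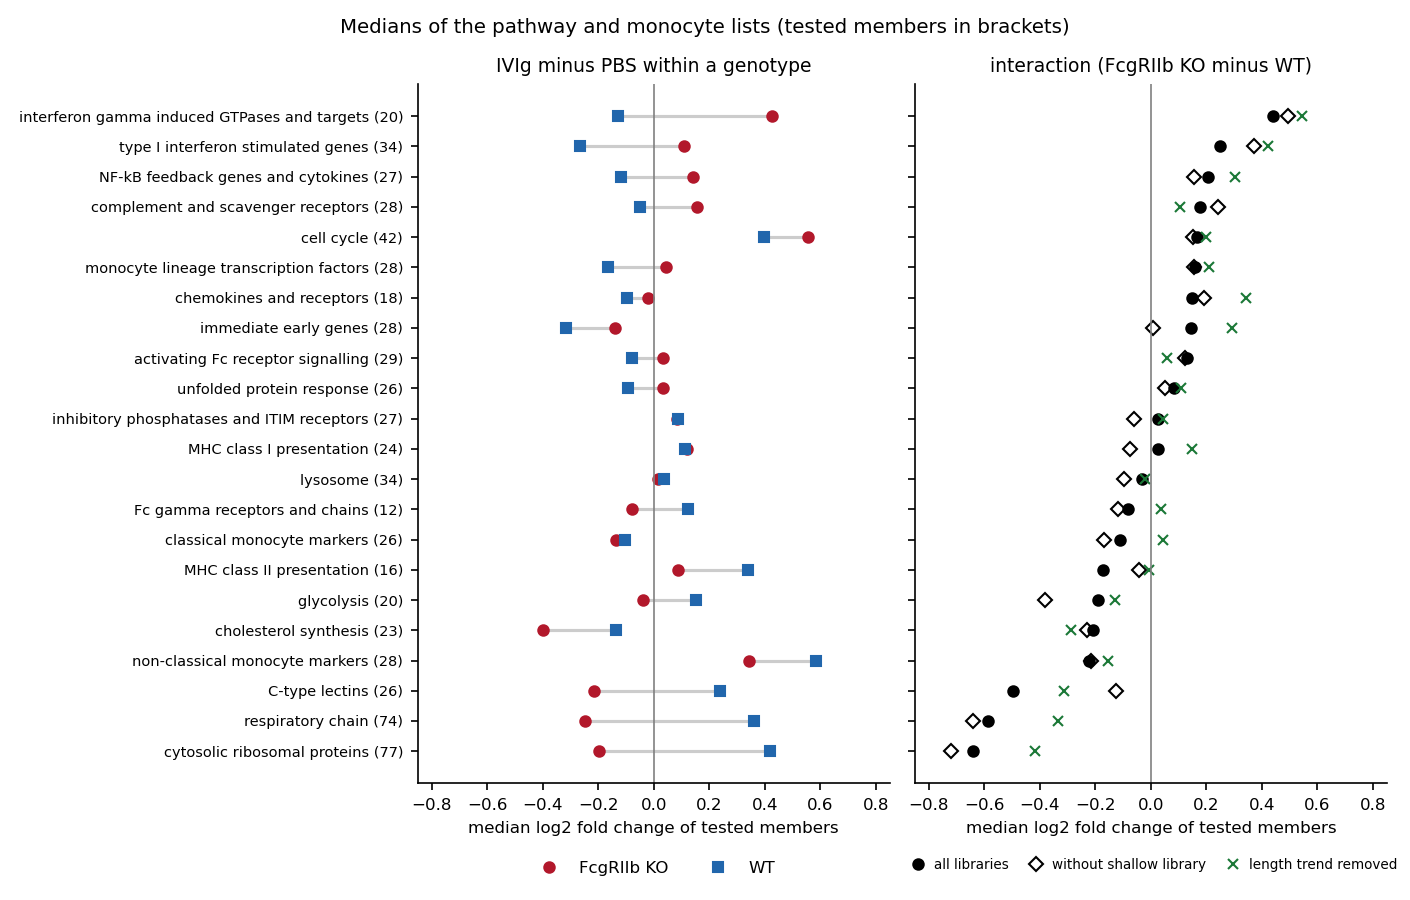
Median log2 fold change of the tested members of each pathway or monocyte list (number in brackets; lists of other cell types are not drawn), on the left for IVIg minus PBS in FcgRIIb KO and in WT, and on the right for the interaction with all libraries, without the shallow library and with the length trend removed. Among the lists drawn, the interferon lists stand at the top (0.44 and 0.25), and the ribosomal protein and respiratory chain genes at the bottom (-0.64 and -0.59).

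The listed ribosomal protein and respiratory chain genes had interactions of 1 sign throughout. All 77 tested ribosomal protein genes were below 0, with a median of -0.64, from medians of -0.20 in the KO and 0.42 in WT. All 74 tested respiratory chain entries were also below 0, with a median of -0.59, from -0.25 in the KO and 0.36 in WT. Not on that list are the mitochondrial genes mt-Cytb, mt-Nd1, mt-Nd2, mt-Nd4 and mt-Nd5. Without the shallow library they were higher with IVIg in both genotypes at an unadjusted edgeR p under 0.05, which is why they are given. Their interactions in that fit were 0.01, 0.06, 0.04, 0.04 and 0.18, and the other mitochondrial genes are not described here. Cox5b stood at 148, 63.7 and 56.4 CPM in the FcgRIIb KO IVIg libraries and at 92.2, 121.3 and 171 CPM in the FcgRIIb KO PBS libraries, against 52.7, 85.3 and 103.59 CPM in WT IVIg and 57.8, 55.9 and 43.4 CPM in WT PBS. Cox5b, a subunit of cytochrome c oxidase, was highest in KO PBS replicate 3 and KO IVIg replicate 1, with an interaction of -1.17 ± 0.50 (edgeR unadjusted p = 0.0316), or -1.20 without the shallow library. None of these genes was called.

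These genes are short, with median exon lengths of 1781 and 1696.5 bases, against 3457.5 bases over all tested genes, and the medians moved with single libraries. Across 5048 abundant genes the interaction followed exon length (Spearman 0.44, a description across genes), and so did the levels of single libraries. The correlation of a library's deviation with length was -0.65, 0.05 and 0.31 in the FcgRIIb KO IVIg libraries and 0.16, 0.01 and -0.65 in the FcgRIIb KO PBS libraries, against 0.57, -0.27 and -0.30 in WT IVIg and 0.28, 0.38 and 0.52 in WT PBS. The ribosomal protein genes deviated by 0.88, -0.16 and -0.18 in FcgRIIb KO IVIg libraries and by -0.16, 0.25 and 0.99 in FcgRIIb KO PBS libraries, against -0.74, 0.22 and 0.30 in WT IVIg and -0.25, -0.29 and -0.85 in WT PBS. So 1 library of the KO at either treatment was high, and the WT libraries ran low except for WT IVIg replicates 2 and 3. Without KO PBS replicate 3 the length correlation of the interaction was -0.05 and the ribosomal median -0.20, and without KO IVIg replicate 1 that median was -1.07. With the length trend of each library removed it was -0.42, while the interferon medians were 0.54 and 0.42. The part of RNA quality in these values was not tested.

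Among genes of at least 5 CPM with a negative interaction, Lars2, Mir6236, Clec4b1 and the ribosomal RNA gene Rn18s had the lowest p values. In FcgRIIb KO monocytes Rn18s was at 11777, 7747 and 10722 CPM with IVIg and at 8997, 11273 and 32086 CPM with PBS, and in WT monocytes at 2366, 6946 and 14576 CPM with IVIg and at 2664, 2227 and 1189.8 CPM with PBS. Rn18s is the 18S ribosomal RNA, which messenger RNA selection removes only in part, and its interaction was -2.77 ± 0.80 (edgeR unadjusted p = 0.0026), or -3.01 without the shallow library. The Lars2 levels were 713, 461 and 609.6 CPM in FcgRIIb KO IVIg and 636, 1426 and 2215 CPM in FcgRIIb KO PBS, against 127, 457 and 945 CPM in WT IVIg and 148, 205 and 104.27 CPM in WT PBS. Lars2, a mitochondrial leucyl-tRNA synthetase gene, gave -3.004 ± 0.76 (edgeR unadjusted p = 0.000821), or -3.01 without the shallow library. Mir6236 gave -3.74 ± 1.03. Rn18s, Lars2 and Mir6236 were each highest in KO PBS replicate 3 and lowest in WT PBS replicate 3.

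**Figure D5:**
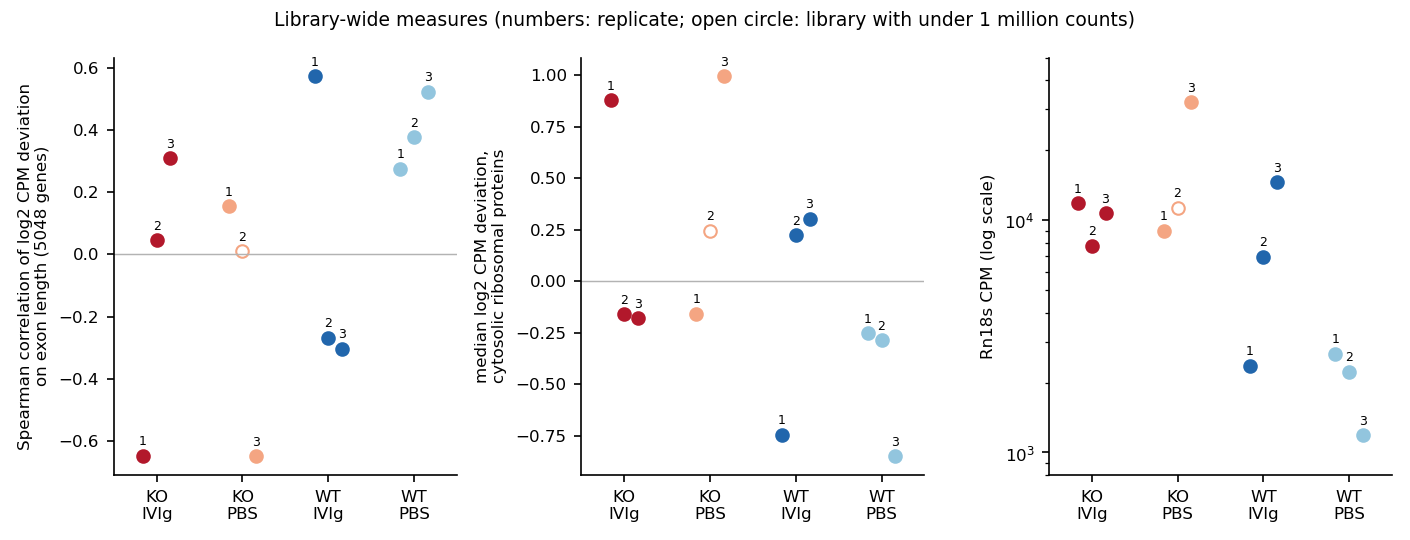
For each library of the 4 groups, the Spearman correlation of its log2 CPM deviation with exon length (left), the median log2 CPM deviation of the ribosomal protein genes (middle) and Rn18s CPM on a log axis (right), with the replicate number beside each point. FcgRIIb KO IVIg replicate 1 and FcgRIIb KO PBS replicate 3 stand at -0.65 on the left, and at 0.88 and 0.99 in the middle.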

How the data were processed

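Libraries of sorted spleen monocytes were prepared with a kit for stranded mRNA (labels' protocols). The submitters' processing notes name GRCm39 as the build and STAR as the aligner. The deposited values are raw counts per gene, made by the authors with featureCounts 2.0.2 and the Ensembl 104 annotation, per the file headers. The command there sets no strand option and lets reads count for every gene they overlap, so overlapping, antisense and near-identical genes are not kept apart. A further 18 columns of the table name none of the samples and stayed unused. Of 55416 genes, 1492 lack a symbol and hold 0.125% to 0.450% of a library's counts.

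Genes passing filterByExpr over 6 groups (17040) were scaled by TMM. A quasi-likelihood model over 18 libraries (edgeR 4.0.16 under R 4.3.3, 12 residual degrees of freedom) gave the tests, with Benjamini-Hochberg adjustment over all genes tested. CPM values use TMM-scaled totals, except that the CPM worth of 3 counts uses plain totals. Intervals are 95%, and errors beside fold changes are standard errors of the model. The scripts were tested on simulated data. Groups were read from the labels for genotype and treatment, and replicate numbers, given in accession order, only name libraries. The 34 gene lists, the members and the rule for named genes were chosen with earlier results of these data known. That rule takes the 12 genes of each direction with the lowest p among those with a proper symbol, at least 5 CPM and p under 0.05 also without the shallow library. It adds 2 genes of each list, the Fc receptors and any called gene, and the text describes a part of these and further members of the lists. Promoters are RefSeq's, matched by symbol, and 10879 of the tested genes have one. Alternatives were DESeq2 1.42.0, voom with quality weights (limma 3.58.1), RLE scaling, other filters, the legacy fit, the compared groups only, removal of immunoglobulin, haemoglobin and mitochondrial genes, removal of each library's trend on gene length, each library left out and, added after seeing the data, removal of the most alike WT pair. Some members of the lists are not reported here by name, and counts and medians of lists include them. Figures were drawn in Python 3.11.15.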

Additional observations from a re-analysis of the deposited data

How the results depend on the processing

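No paired analysis was possible because the replicate numbers follow accession order and tie no mouse of one group to a mouse of another. The interaction had 0 calls in each direction under all settings except DESeq2, which called 1 gene lower. Genes at an unadjusted p under 0.05 numbered 487, 1066 under limma voom with quality weights, and 303 (without FcgRIIb KO PBS replicate 3) to 1479 (without FcgRIIb KO PBS replicate 1) with 1 library left out. The IVIg effect in the FcgRIIb KO had 0 calls, 13 under DESeq2 and 0 to 1 with 1 library left out. In WT it had 1 call, and 0 with the compared groups only, with those and without the shallow library, under limma voom, the legacy fit or the stricter filter, and without the most alike pair, and 0 to 1 with 1 library left out. Of the median interactions of 34 lists, 17 lay on both sides of 0 over the 23 settings. The signs of 6 of 89 single genes turned, and the cause was not tested. Fcgr2b (0.00) gave -0.0099 with RLE factors, -0.089 under DESeq2, -0.067 under the legacy fit, -0.0095 without immunoglobulin, haemoglobin and mitochondrial genes, -0.088 with the length trend removed, -0.12 without the most alike pair, and -0.28 to 0.18 with 1 library left out. Fcgr1 (0.23) gave -0.047 under limma voom, -0.015 without the most alike pair and 0.08 to 0.58 with 1 library left out. Fcgr3 (-0.08) gave 0.18 with the length trend removed and -0.32 to 0.16 with 1 left out. Fcgr4 (-0.08) gave 0.13 with the compared groups only and no shallow library, 0.38 under limma voom, 0.32 with the length trend removed and -0.42 to 0.67 with 1 left out. Kdm5d gave -0.10 with the length trend removed and -0.055 to 0.80 with 1 left out. Ddx3y gave 0.10 with the compared groups only and no shallow library, 0.10 under limma voom and -0.20 to 0.10 with 1 left out. Counting each of the 34 list medians once under each of the 23 settings, 28 moved by more than the spread between replicates and 754 did not. Groups of 3 mice, and a library of 719494 counts in 1 of them, limit what could be resolved.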

Other observations

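The 8 tested erythroid markers stood higher with IVIg in both genotypes by estimate, with a median effect of 1.48 in the FcgRIIb KO and 1.07 in WT. Of the 8, 7 had 0 counts in the shallow library, and without it the KO median was 1.44. The interaction median was 0.22, or 0.18 without the shallow library and -0.27 without FcgRIIb KO IVIg replicate 2. Their sums were 22.98 to 63.4 CPM in FcgRIIb KO IVIg and 18.1 to 25.4 CPM in FcgRIIb KO PBS, against 12.6 to 30.6 CPM in WT IVIg and 9.01 to 15.1 CPM in WT PBS. Immunoglobulin genes took 0.120% to 0.538% of counts in FcgRIIb KO IVIg libraries and 0.143% to 0.290% in FcgRIIb KO PBS libraries, against 0.0346% to 0.112% in WT IVIg and 0.0303% to 0.0334% in WT PBS. Ighg2c, a heavy chain constant gene of IgG2c, stood at 14.7, 42.1 and 7.13 CPM in FcgRIIb KO IVIg and 1.98, 8.46 and 1.85 CPM in FcgRIIb KO PBS, against 0, 0.0819 and 7.05 CPM in WT IVIg and 0, 0.545 and 0 CPM in WT PBS.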
